A study of Homo sapiens with 12 samples.

Results

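The early replicating regions (ERRs) of human chromosome 17 were examined in 4 deposited lists of regions, 1 for each condition of an experiment on CDK12 and Myc. An ERR is a stretch of the genome in which newly made DNA was enriched at the very start of S phase. Every row of the 4 lists that lies on chromosome 17 was taken, which gave 214 regions in shNT and 234 in shNT + OHT, and 257 in shCDK12 and 232 in shCDK12 + OHT. Together these are 937 of the 18185 regions of the series, or 5.15%.

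The cells were U2OS-MycER, a human osteosarcoma cell line that expresses a chimera of Myc and the ligand-binding domain of the estrogen receptor, so that 4-hydroxytamoxifen (OHT) switches Myc activity on. In all 4 conditions a hairpin RNA was induced with 1 µg/mL doxycycline. The hairpin had no target in shNT and silenced CDK12 in shCDK12, and CDK12 is a kinase that phosphorylates RNA polymerase II during elongation. The lists hold no measure of the CDK12 level. The 2 conditions marked OHT received 300 nM OHT for 40 h, and the other 2 did not. Cells of every condition were arrested with 100 ng/mL nocodazole for 8 h, collected in mitosis and released for 24 h into 25 µM EdU, a thymidine analogue that labels new DNA, with 2 mM hydroxyurea, which depletes nucleotides and halts forks close to where they began. The maps therefore hold the DNA made first. The line is a single transformed cell line, and its copy number along chromosome 17, which scales the reads of a region, was not analysed here. Each condition had 3 samples, but the authors merged them before calling regions, so a difference between 2 lists has no replicate error and no test. Intervals given below cover the counting error or the spread between regions inside a list only.

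Replication timing follows the compartments of the nucleus. Gene-rich, transcribed and open chromatin is copied early, and gene-poor chromatin at the nuclear edge is copied late. Early domains are often far wider than a single gene because many origins fire close together in them, and their flanks are reached later by forks from within. Chromosome 17 is known as one of the gene-rich human chromosomes, with the CDK12 gene itself on its long arm, and the outermost band of that arm, 17q25, is a gene-rich terminal band. A table of RefSeq genes gave 1169 protein-coding genes for the whole of chromosome 17, or 14.4 per Mb of the span in which regions were called, the second highest of the 22 autosomes.

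The reads in autosomal regions differed strongly between the lists, with 17261176 in shNT and 49994993 in shNT + OHT, and 13220717 in shCDK12 and 28573223 in shCDK12 + OHT, and reads on chromosome 17 followed the same order. They numbered 1586399, 4700189, 1286164 and 2581148 in that order of lists. Read density on the chromosome (reads per kb of called region) was therefore divided by the density over all autosomal regions of the same list. This removes a factor common to all regions of a list, but not a difference in enrichment over the background. The lists give reads inside regions only, so the depth of the libraries was not known from them. How far the depth or the enrichment of a list moves the number and extent of its regions was not tested.

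Chromosome 17 was early over a large share of its length in each condition. Regions covered 33.2 Mb in shNT and 35.9 Mb in shNT + OHT, and 35.1 Mb in shCDK12 and 38.1 Mb in shCDK12 + OHT. Of the 81.2 Mb between the first and the last called base this was 40.9%, 44.2%, 43.2% and 47.0%, against autosomal medians of 14.5%, 16.3%, 14.9% and 19.1%. Chromosome 17 was the third most covered of the 22 autosomes in both shNT lists and the second in both shCDK12 lists. Chromosome 22 came first in each list, with 52.5%, 57.2%, 57.4% and 66.0%. Chromosome 19 was at 42.3%, 45.2%, 41.7% and 44.2%, so it lay above chromosome 17 in both shNT lists and below it in both shCDK12 lists.

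By density, too, the chromosome ranked high. There were 47.7 reads per kb of region on chromosome 17 in shNT and 131 in shNT + OHT, and 36.7 in shCDK12 and 67.7 in shCDK12 + OHT, which were 1.22, 1.28, 1.25 and 1.29 times the autosomal density of the same list. The ratio was second only to that of chromosome 22 in each of the 4 lists. The chromosome held 7.53%, 7.37%, 7.76% and 6.98% of the autosomal called length, and 9.19%, 9.40%, 9.73% and 9.03% of the autosomal reads. Across the 22 autosomes the covered share followed the number of protein-coding genes per Mb, with Pearson's r of 0.84, 0.83, 0.81 and 0.77 and Spearman's rho of 0.89, 0.89, 0.89 and 0.87 in the 4 lists. These values describe chromosomes of 1 genome, which share each list's library and calling.

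**Figure D1:**
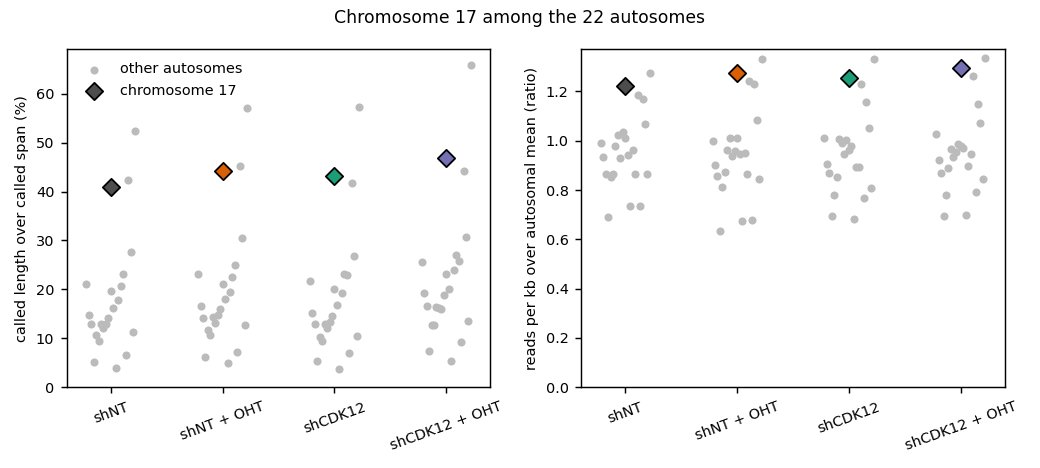
Covered share (left, percent of the called span) and read density relative to the autosomal mean of the list (right, ratio) for each autosome in the 4 lists. Diamonds are chromosome 17 and grey points are the 21 other autosomes in numerical order; chromosome 17 sits at 40.9 to 47.0% and 1.22 to 1.29, among the highest points of every list.

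The median region of chromosome 17 was wider than that of the 21 other autosomes pooled, and ranked 3, 4, 2 and 2 of 22 in shNT, shNT + OHT, shCDK12 and, last, shCDK12 + OHT. The median was wider on chromosome 22 in each list, on chromosome 19 in both shNT lists and on chromosome 20 in shNT + OHT. On chromosome 17 the median width was 102 kb in shNT (95% interval 86.0 to 116) and 80.2 kb with OHT added (67.6 to 97.2). In shCDK12 it was 87.6 kb (73.2 to 98.4), and 92.0 kb with OHT added (80.4 to 112). On the other autosomes the medians were 73.6, 60, 55.2 and 70.8 kb, each below the interval of chromosome 17 in its own list. Among the 4 lists of chromosome 17, the intervals of the medians overlapped one another. Regions of 200 kb or more numbered 52 in shNT and 55 in shNT + OHT, and 52 in shCDK12 and 60 in shCDK12 + OHT, or 24.3%, 23.5%, 20.2% and 25.9% of the regions of the chromosome. On the other autosomes such wide regions made up 13.4%, 12.7%, 10.3% and 14.0%. Regions of 500 kb or more numbered 12, 14, 12 and 13, and they held 23.6%, 30.7%, 22.3% and 24.8% of the called length of the chromosome.

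Along the chromosome, early replication formed a small number of blocks parted by long stretches with no region in any list. On hg19, the build of the lists, the longest stretch was chr17:49257601-53482800 (4.23 Mb), followed by chr17:11018801-15142000 (4.12 Mb), chr17:22262401-25262800 (3.00 Mb), which lies where the centromere is, and chr17:66471601-69394000 (2.92 Mb). Whether reads can be placed in the stretch at the centromere was not tested, so its lack of regions says nothing of timing. Its bases are counted in the called span. Of the 82 steps of 1 Mb, counted from the start of the short arm, 70 held a region in every list and 10 held none in any. Those 10 were the steps from 12 to 15 Mb, 23 to 25 Mb, 50 to 53 Mb and 67 to 69 Mb, all inside the 4 long stretches. The remaining 2 were the steps at 10 to 11 Mb, which was empty in shNT and at most 8.52% covered elsewhere, and at 32 to 33 Mb, which held a region in both shNT lists and in neither shCDK12 list.

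At the other extreme, 6 steps were covered by at least 90% in each list. They begin at 7, 40, 48, 73, 74 and 79 Mb, so that 3 of the 6 are in 17q25. The step at 48 to 49 Mb was the most covered, with 99.4% in shNT and 98.9% in shNT + OHT, and 98.5% in shCDK12 and 98.4% in shCDK12 + OHT. At least 80% was covered in each list in 12 steps, and at least 50% in 29. The median step was covered by 39.8% in shNT and 44.5% in shNT + OHT, and 44.3% in shCDK12 and 51.8% in shCDK12 + OHT. Among the 72 steps with a region in any list, shCDK12 + OHT covered the most of 37 and shNT the least of 34.

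**Figure D2:**
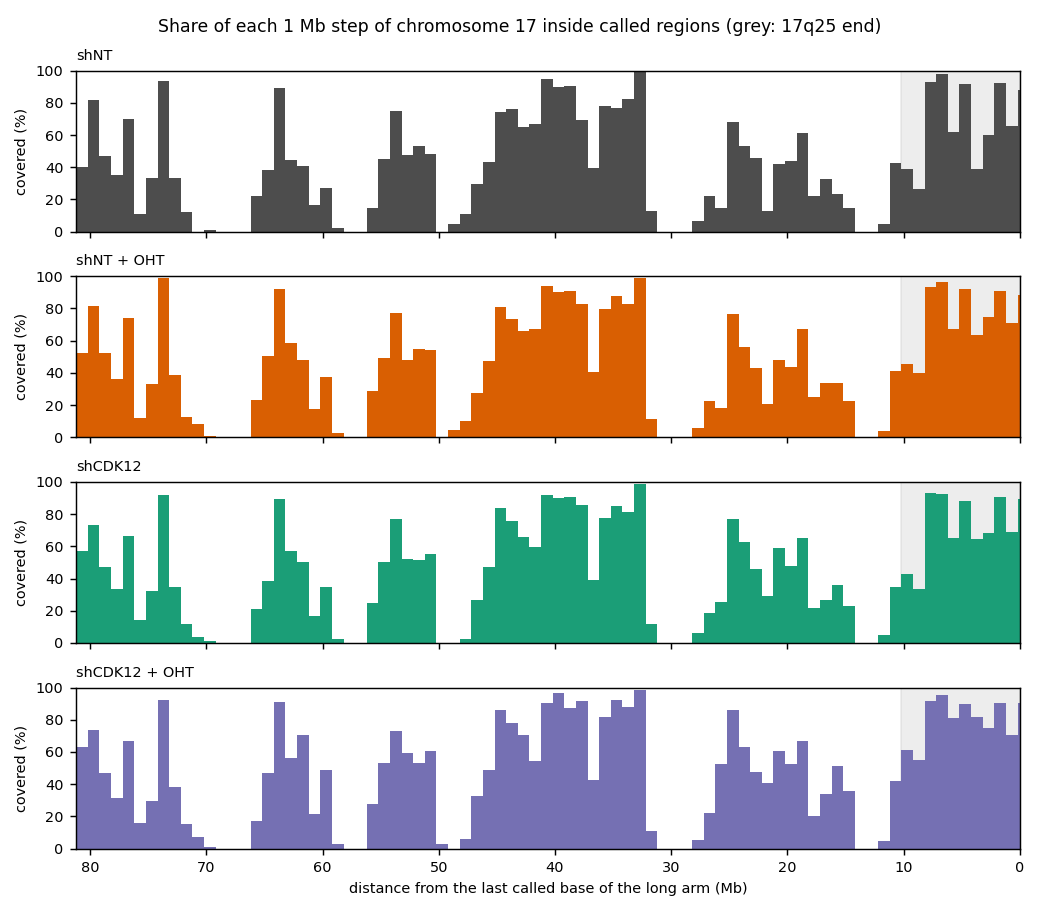
Share of each 1 Mb step of chromosome 17 inside called regions (vertical axis, percent) against the distance from the last called base of the long arm (horizontal axis, Mb, short arm on the left), 1 panel per list; the grey band is the 17q25 end. The 4 panels share the same blocks and the same empty stretches, and median coverage of a step runs from 39.8% in shNT to 51.8% in shCDK12 + OHT.

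The gaps of at least 2 Mb and the start of 17q25 divided the chromosome into 6 blocks. The block chr17:25262801-49257600 of the long arm was the longest, and 57.8% of it was covered in shNT and 60.3% in shNT + OHT, and 59.3% in shCDK12 and 61.9% in shCDK12 + OHT. Its density relative to the autosomes was 1.30, 1.38, 1.31 and 1.38. The block chr17:53482801-66471600 was less covered and less dense, with 35.7%, 39.8%, 41.9% and 49.1% covered and densities of 0.92, 0.89, 0.94 and 0.99. This block changed most in covered length among the 4 blocks longer than 10 Mb when the silenced and the control list with OHT were set side by side, by 23.6%, and by 17.3% between them without OHT. The 2 blocks of the short arm had 41.6%, 45.4%, 42.4% and 43.7% (up to position 11018800) and 39.6%, 46.4%, 43.5% and 49.7% (chr17:15142001-22262400) covered. The outermost short-arm block was the one of the 4 long blocks that had less length covered in shCDK12 + OHT than in shNT + OHT, by -3.85%.

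Coverage and density went together within the chromosome. In steps with at least 10% covered, Spearman's rho between the covered share and the density was 0.68 in shNT and 0.71 in shNT + OHT, and 0.70 in shCDK12 and 0.65 in shCDK12 + OHT over 65, 65, 64 and 64 steps, which lie side by side and share regions across their borders. The densest of these steps was at 79 to 80 Mb, with 2.62, 2.86, 2.65 and 2.56 times the autosomal density. The sparsest in shNT was at 59 to 60 Mb, with 0.33, 0.40, 0.55 and 0.63.

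Some of the widest regions kept nearly the same limits in each list. The widest region of shNT, chr17:47907601-48815600, was 908 kb wide there, 907 kb in shNT + OHT, 907 kb in shCDK12 and 902 kb in shCDK12 + OHT, always as 1 piece. It held 91687, 266439, 55033 and 104481 reads, and its density was 2.58, 2.86, 2.08 and 2.22 times that of the autosomes, lower in both shCDK12 lists than in both shNT lists. The region chr17:79758801-80497600 in 17q25 was 739, 739, 738 and 731 kb wide, with relative densities of 2.63, 3.01, 2.73 and 2.75. Its neighbour chr17:78865201-79552000 was 687, 755, 714 and 758 kb wide with relative densities of 2.72, 2.87, 2.72 and 2.61. By the deposited score this neighbour was the highest on the chromosome in 3 lists, and in shCDK12 it had the highest score of the whole list.

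Other wide regions were single in one list and divided in another. The widest region of shNT + OHT, chr17:17079201-18188800 (1110 kb), overlapped 4 regions of shNT, 4 of shCDK12 and 2 of shCDK12 + OHT, although those pieces added up to 1081, 1079 and 1087 kb. In shCDK12 + OHT the widest region was chr17:40516801-41568400 (1052 kb), and it overlapped 3 regions of shNT, 3 of shNT + OHT and 4 of shCDK12, which summed to 973, 986 and 970 kb. The region chr17:73385201-74416000 of 17q25, 1031 kb wide in shNT + OHT, overlapped 3 regions of shNT, 2 of shCDK12 and 2 of shCDK12 + OHT. The region chr17:36541201-37430800 was 890 kb wide in shNT and part of 1 region of 1026 kb in shNT + OHT, and it overlapped 2 regions in each shCDK12 list.

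Joining the regions of all 4 lists gave 221 merged places on the chromosome. Of these, 162 (73.3%) held a region of every list, against 60% over all autosomes, and they made up 92.2% of the merged length. Inside these 162 places shNT had 209 regions, shNT + OHT 198, shCDK12 222 and shCDK12 + OHT 190. A place was divided into several pieces in 35 cases in shNT and in 32 in shNT + OHT, and in 41 in shCDK12 and in 21 in shCDK12 + OHT. The last list thus had the fewest regions inside the common places, and it had the longest coverage of the chromosome as a whole. The regions and pieces of common places were not counted on the other autosomes. Over all autosomes, 12% of the regions of shCDK12 + OHT overlapped 2 or more of shCDK12. In 105 places each list had exactly 1 region, and there the widest of the 4 was 1.20 times the narrowest at the median. The width was the same in all 4 lists at 4 places, within 1.1 times at 30, and at least 2 times apart at 7. The most extreme of the 7 was chr17:55085601-55171600, where the region was 22 kb wide in shNT and 0.4 kb with OHT added, 32.4 kb in shCDK12 and 82.8 kb with both.

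The 59 places that were not common to all lists were mostly narrower than 129 kb, the median width of the common places, and the widest was 148 kb. The largest group, 20 places with a median width of 52.8 kb, was missing from shNT alone (9.05% of the places, against 7.89% over all autosomes). Another 12 were found in shCDK12 + OHT alone (5.43%, against 9.32%), 10 in shNT + OHT alone (4.52%, against 4.64%), 2 in shCDK12 alone (0.905%, against 2.31%) and none in shNT alone (against 0.490%). Both shCDK12 lists and neither shNT list had 9 places (4.07%, against 4.43%), and the reverse held for 3 (1.36%, against 2.53%). No place of chromosome 17 was limited to the 2 OHT lists, against 183 of 4893 autosomal places (3.74%). Several of these shares were near those of the autosomes.

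The first comparison asked what MycER activation changed on chromosome 17 in cells with CDK12. With OHT the covered length was 8.10% longer than in shNT, against 10.5% on the other autosomes, which placed chromosome 17 20th of 22. Of the 234 regions with OHT, 39 (16.7%, Wilson 95% interval 12.4 to 21.97) had no overlap with a region of shNT, against 21.2% over all autosomes, and 26 (11.1%) overlapped 2 or more regions of shNT, against 5.58%. In the other direction, 0 of 214 regions of shNT (Wilson upper limit 1.76%) were absent with OHT, against 1.5%, and 11 (5.14%) were divided, against 3.56%. The 22 kb region of shNT at chr17:55085601-55171600 counted as present through an overlap with a region of 0.4 kb. Without regions up to 2 kb, 0.469% of the shNT regions were absent with OHT. New regions supplied 41.5% of the 3.42 Mb gained and joined neighbours 21%, while these shares were 50.9% and 11.1% on the other autosomes. The rest of the gain was the widening of regions that overlapped 1 region of shNT. With the 3874 highest-scoring regions of each list, 7.43% of the regions with OHT were absent from shNT, against 9.67% over all autosomes.

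In 1 Mb steps, the covered share rose by 10 points or more in 11 of 72 steps (15.3%), against 7.35% of autosomal steps, and fell by as much in 0, against 0%. The rises were spread over both arms, from 0 to 1 Mb to 78 to 79 Mb. The largest was at 77 to 78 Mb, from 39.1% to 63.7%, followed by 78 to 79 Mb, from 60.1% to 74.4%, and 18 to 19 Mb, from 44.7% to 58.8%. Among the falls, none of which reached 10 points, the step at 58 to 59 Mb fell by 2.76 points, from 45.8% to 43.0%. The steps at 37 to 38 Mb and 34 to 35 Mb fell by 2.6 and 2 points. Regions matched 1 to 1 between the lists (150) had a median log2 width ratio of 0.01 (interval 0.00 to 0.04), and their median log2 density ratio was 0.07 above that of all autosomal matched regions, the third highest of 22. The widest region absent from shNT was chr17:72176001-72284400 in 17q25. It held 3814 reads over 108 kb, a relative density of 0.34, and it overlapped a region of each shCDK12 list as well.

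The second comparison set OHT against no OHT in cells with silenced CDK12. The covered length was 8.71% longer with OHT, while on the other autosomes it was 21.9% longer, and chromosome 17 was 21st of 22. Of the 232 regions of shCDK12 + OHT, 13 (5.60%, interval 3.30 to 9.35) were absent from shCDK12, against 15.5% over all autosomes, and no autosome had a lower share. With a common minimum score of 146 in all lists the share was 16.5% against 26.6%, again with no autosome lower. Regions that overlapped 2 or more regions of shCDK12 numbered 35 (15.1%), against 12%. In the other direction, 7 of 257 (2.72%) were absent, against 6.21%, and 11 (4.28%) were divided, against 3.27%. New regions made up 16.4% of the 4.15 Mb gained, widening of single regions 52.0% and joining 31.6%, against 34.0%, 45.0% and 21% on the other autosomes. The gain in this comparison was thus mostly around regions that were already there, on chromosome 17 and on the other autosomes as well. This split of the gain was not repeated with the common minimum score.

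By 1 Mb steps, 10 of 72 (13.9%) rose by 10 points or more, against 18.7%, and 0 fell, against 0%. The largest rise was at 55 to 56 Mb, from 25.5% to 52.4%, where the regions chr17:55761601-55819600 and chr17:55895201-56211600 of shCDK12 both overlapped chr17:55721601-56068400 of shCDK12 + OHT. It was followed by 72 to 73 Mb, from 33.5% to 55.0%, and 19 to 20 Mb, from 50.2% to 70.7%. At 39 to 40 Mb the covered share fell by 5.12 points, from 59.5% to 54.4%. It fell by 3.88 points at 15 to 16 Mb and by 3.64 points at 42 to 43 Mb. Matched regions (168) had a median log2 width ratio of 0.02 (0.00 to 0.06), against 0.12 on the other autosomes (0.11 to 0.14). Their median log2 density ratio less that of all autosomal matched regions was -0.0080, the 16th highest of 22. The widest region absent from shCDK12 was chr17:72326001-72443600 in 17q25, 118 kb wide with 2625 reads, found in no other list. The widest region of shCDK12 absent from shCDK12 + OHT was chr17:57829201-57875200, 46 kb wide with 684 reads.

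**Figure D3:**
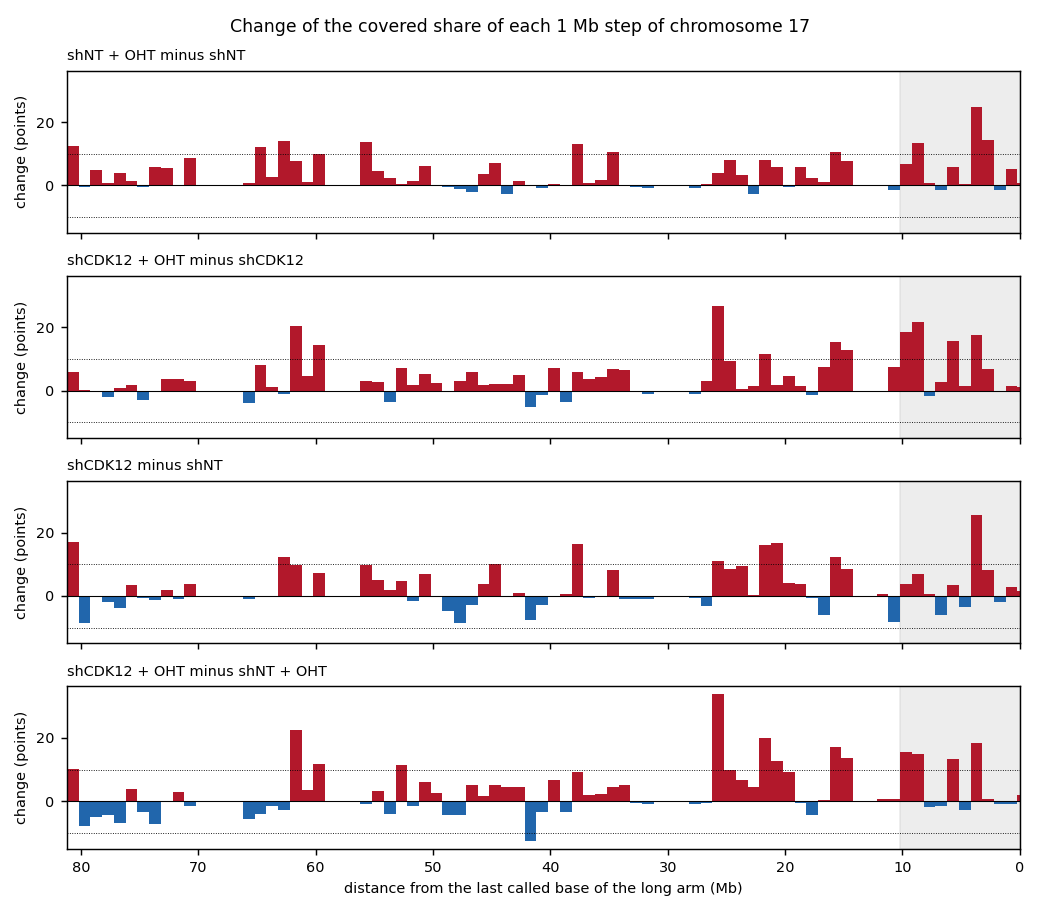
Change of the covered share of each 1 Mb step (vertical axis, percentage points, red up and blue down) against the distance from the last called base of the long arm (Mb), 1 panel per comparison; dotted lines mark 10 points and the grey band the 17q25 end. Rises past 10 points number 11, 10, 9 and 13 from top to bottom, and 1 step falls that far, in the bottom panel.

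The third comparison asked what silencing of CDK12 changed without OHT. Covered length was 5.56% longer in shCDK12 than in shNT, against 2.14% on the other autosomes, the fifth highest of 22. Of the 257 regions of shCDK12, 41 (16.0%, interval 11.98 to 20.9) were absent from shNT, against 20.3%, and 16 (6.23%) overlapped 2 or more, against 3.65%. Of the 214 regions of shNT, 5 (2.34%) were absent from shCDK12, against 5.9%, and 21 (9.81%) were divided, against 10.4%. Gained length came to 3.62 Mb and lost length to 1.77 Mb. The other autosomes gained 54.4 Mb and lost 45.7 Mb, so that loss was nearer to gain there. These values moved with the size of the lists. With the common minimum score, 6.45% of the regions of shCDK12 were absent from shNT, against 8.75% over all autosomes, coverage was 2.37% longer, and 5 steps rose by 10 points or more while 2 fell.

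Steps that rose by 10 points or more were 9 of 72 (12.5%), against 5.77%, and 0 fell by as much, against 2.83%. The largest rise was again at 77 to 78 Mb, from 39.1% to 64.6%, then at 0 to 1 Mb, from 40.0% to 57.0%, and at 60 to 61 Mb, from 42.2% to 58.9%. The step at 33 to 34 Mb fell by 8.6 points, from 11.2% to 2.64%, and that at 1 to 2 Mb by 8.48 points, from 81.9% to 73.4%. In the latter, the place chr17:1348001-1426800 had a region in both shNT lists, with 961 and 3511 reads, and none in either shCDK12 list. The step at 70 to 71 Mb fell by 8.12 points, from 42.8% to 34.7%. Matched regions (159) had a median log2 width ratio of 0.00 (-0.03 to 0.01), against -0.05 on the other autosomes, and their relative log2 density was 0.07 above that of all autosomes. The widest region that shNT had and shCDK12 lacked was chr17:64487201-64561200, 74 kb wide with 1553 reads, which was also absent from shCDK12 + OHT. The widest in the other direction was chr17:77178001-77291200 in 17q25, 113 kb wide with 1210 reads.

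The fourth comparison was silencing of CDK12 under OHT. The covered length was 6.16% longer in shCDK12 + OHT than in shNT + OHT, against 12.6% on the other autosomes, 19th of 22. Of 232 regions, 21 (9.05%, interval 5.997 to 13.4) were absent from shNT + OHT, against 14.9%, and 28 (12.1%) overlapped 2 or more, against 7.55%. Of the 234 regions of shNT + OHT, 17 (7.26%) were absent from the silenced list, against 11.2%, and 19 (8.12%) were divided, against 6.3%. Gained length was 4.32 Mb and lost length 2.10 Mb.

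Rises of 10 points or more were seen in 13 of 72 steps (18.1%), against 15.6%, and a fall in 1 (1.39%), against 2.34%. The step at 55 to 56 Mb went from 18.5% to 52.4%, the largest change of any step in the 4 comparisons. The step at 19 to 20 Mb went from 48.1% to 70.7% and the step at 59 to 60 Mb from 20.7% to 40.5%. The falling step was 39 to 40 Mb, from 67.0% to 54.4%, where the region at its right end was 423 kb wide before and 389 kb after silencing, and that at chr17:39198401-39308400 was 91.6 and 19.2 kb wide. Short of 10 points, the steps at 1 to 2 Mb and 7 to 8 Mb fell by 7.8 and 7.12 points. Matched regions (143) had a median log2 width ratio of 0.00 (-0.01 to 0.04), against 0.05 elsewhere. Their median log2 density ratio less that of all autosomal matched regions was -0.010, the 14th highest of 22. The widest region absent from the silenced list was chr17:64483601-64564400, 80.8 kb wide with 4228 reads.

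The 4 comparisons each gave a longer coverage, and the Jaccard index, the shared bases divided by all bases called by one list or the other, was 0.887 for OHT in shNT cells, 0.867 for OHT in shCDK12 cells, 0.854 for silencing without OHT and 0.841 for silencing with OHT. Their ranks among the 22 autosomes were 3, 2, 3 and 2 from the highest. Over the 72 steps, the changes with OHT in the shNT and the shCDK12 cells had Pearson's r of 0.50 and Spearman's rho of 0.45, and those with silencing, without and with OHT, had r of 0.69 and rho of 0.68. The 2 comparisons of either pair use 4 different merged lists, called on the same grid, and neighbouring steps share regions.

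**Figure D4:**
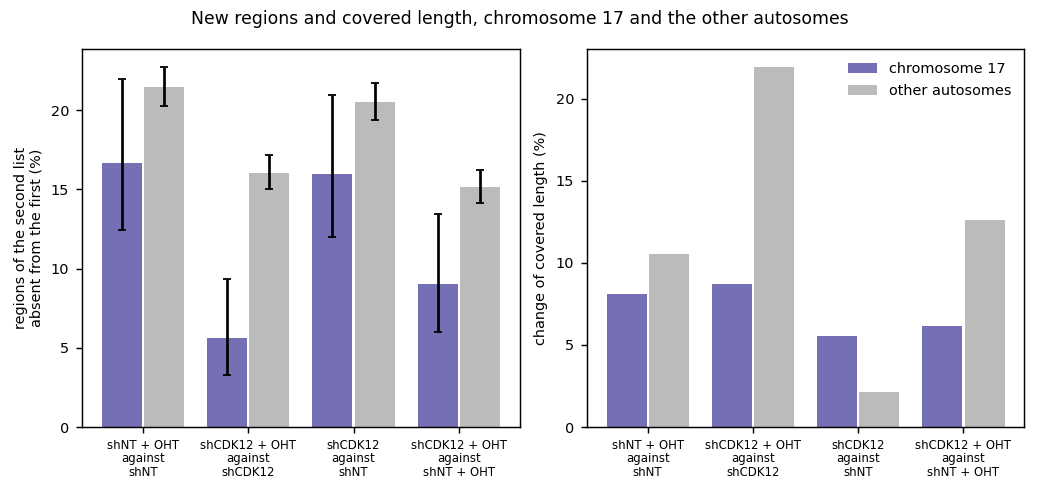
Left, regions of the second list absent from the first (percent, with Wilson 95% intervals) on chromosome 17 and on the 21 other autosomes together, for the 4 comparisons; right, change of covered length (percent). The share of new regions on chromosome 17 was 16.7, 5.60, 16.0 and 9.05% from left to right, below the other autosomes each time but with overlapping intervals in the first and the third comparison, and its length changed by 8.10, 8.71, 5.56 and 6.16%.

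Some steps rose at each change of condition. At 77 to 78 Mb the covered share was 39.1% in shNT and 63.7% in shNT + OHT, and 64.6% in shCDK12 and 82.0% in shCDK12 + OHT. In shNT its right part held the regions chr17:77666801-77935200 and chr17:77990801-78287600, which were a single region in the other 3 lists, 701, 680 and 891 kb wide. At 59 to 60 Mb the order was 12.8%, 20.7%, 29.0% and 40.5%, at 65 to 66 Mb 23.6%, 34.0%, 36.0% and 51.2%, and at 66 to 67 Mb 14.6%, 22.3%, 23.1% and 35.9%. Each of these steps was covered by less than 40% in shNT, but they were picked after their values were seen. Steps well covered in shNT also rose each time. Among them were 43 to 44 Mb, at 69.4%, 82.6%, 85.9% and 91.9%, and 46 to 47 Mb, at 77.0%, 87.6%, 85.2% and 92.1%. How many steps rose each time was not counted, here or over the autosomes. Of the 13 steps that shNT covered by at least 80%, 10 had less coverage in shCDK12 + OHT than in shNT + OHT, and the median change of the 13 was -1.56 points. From shCDK12 to shCDK12 + OHT, 7 of the same 13 rose and 6 fell, with a median of 0.16 points. Steps covered this far have little room to rise, and the same share over autosomal steps was not computed.

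The spread of density along the chromosome was smaller in the silenced lists. Over the 64 steps with at least 10% covered in each list, the standard deviation of the log2 relative density was 0.67 in shNT and 0.65 in shNT + OHT, and 0.56 in shCDK12 and 0.53 in shCDK12 + OHT. The same direction was found on 22 of 22 autosomes without OHT and on 20 of 22 with OHT. From no OHT to OHT, the spread was smaller on 10 of 22 autosomes in shNT cells and on 19 of 22 in shCDK12 cells. On chromosome 17, the dense step at 38 to 39 Mb had relative densities of 2.29 in shNT and 2.41 in shNT + OHT against 1.89 in shCDK12 and 1.71 in shCDK12 + OHT. Not all dense steps fell, and the one at 73 to 74 Mb had 1.82 and 1.94 against 2.09 and 2.15. The sparse step at 65 to 66 Mb had 0.44 and 0.47 against 0.69 and 0.74. To keep the classes apart from the lists compared, the steps were divided into 3 classes by their density in shNT, and shCDK12 + OHT was set against shNT + OHT. The density was higher in 20 of 22 steps of the lowest class (median log2 change 0.25), in 20 of 21 of the middle class (0.17) and in 10 of 21 of the highest class (-0.10). For silencing without OHT, with the classes taken from shNT + OHT, the density was higher in 20 of 22 (0.30), 15 of 21 (0.10) and 14 of 21 (0.11) steps, so that the highest class did not lie below the middle one there. OHT in shCDK12 cells, with the classes from shNT, gave 19 of 22 (0.18), 20 of 21 (0.13) and 13 of 21 (0.04). OHT in shNT cells, with the classes from shCDK12, gave 18 of 22 (0.16), 13 of 21 (0.12) and 17 of 21 (0.13). The same counts over autosomal steps were not computed.

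The 17q25 end, taken as the 10.2 Mb from 71 Mb to the last called base, stood apart from the rest of the chromosome in each condition. It was covered by 67.1% in shNT and 73.9% in shNT + OHT, and 71.1% in shCDK12 and 79.3% in shCDK12 + OHT, while the rest was covered by 37.2%, 40.0%, 39.2% and 42.3%. Its density was 1.64, 1.71, 1.74 and 1.68 times the autosomal one, against 1.11, 1.16, 1.13 and 1.19 in the rest. The end held 25, 24, 30 and 27 regions, or parts of them, about as many per Mb (2.45, 2.35, 2.94 and 2.65) as the rest (2.66, 2.96, 3.20 and 2.89). The larger coverage therefore went with width. The median width in the end was 196 kb in shNT (interval 134 to 297) and 195 kb with OHT added (108 to 380), and in shCDK12 it was 139 kb (79.2 to 225) and 156 kb with OHT added (118 to 381). Before 71 Mb the medians in the same order were 89.2 kb (77.6 to 106), 72.8 kb (63.6 to 86.0), 80.8 kb (68.8 to 93.2) and 86.4 kb (73.2 to 100.4). The intervals of the end and the rest overlapped in shCDK12 and not in the other 3 lists. In 20.6 to 21.2% of the called length of the chromosome, the end held 27.7%, 28.1%, 28.6% and 27.5% of its reads.

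**Figure D5:**
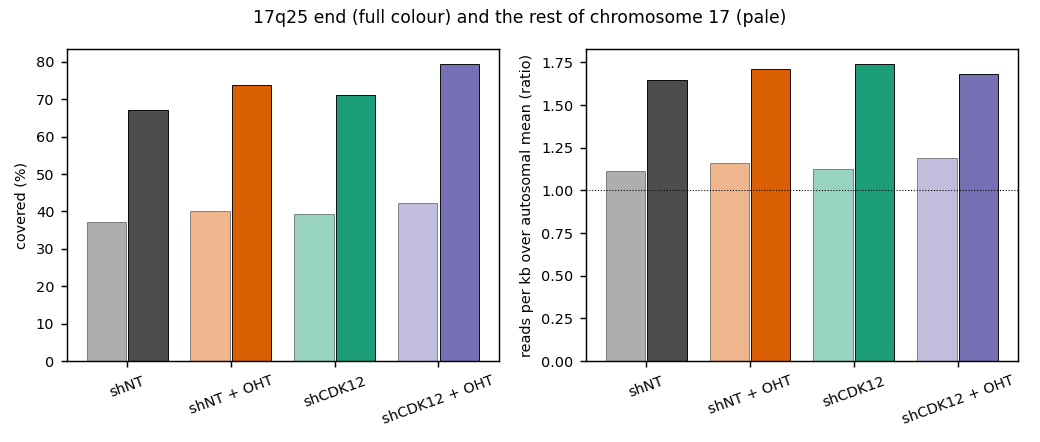
Covered share (left, percent) and read density relative to the autosomal mean of the list (right, ratio; the dotted line is 1) of the 17q25 end in full colour and the rest of chromosome 17 in pale colour. The end lies above the rest in each list, at 67.1 to 79.3% against 37.2 to 42.3% covered.

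The ends of most other autosomes were less covered. The last stretch of the same length on the long arm of each autosome had a median coverage of 26.0%, 28.0%, 22.8% and 26.1% in the 4 lists and a median relative density of 0.89, 0.87, 0.85 and 0.89. The end of chromosome 17 was the second most covered of the 22 in both shNT lists and the most covered in both shCDK12 lists, and its density was second in shNT, shNT + OHT and shCDK12 and first in shCDK12 + OHT.

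Within 17q25, 8 of the 11 steps were covered by at least 50% in each list, against 21 of the 71 steps before it. The 3 others were those at 71, 72 and 77 Mb, and they had the widest ranges over the 4 lists. The step at 71 to 72 Mb was covered by 38.9%, 45.6%, 42.7% and 61.1%, and the step at 72 to 73 Mb by 26.6%, 40.0%, 33.5% and 55.0%, in the order of lists used throughout. The steps at 73, 74 and 79 Mb stayed between 90.4% and 98.2%. Covered length in the end was 10.02% longer with OHT in shNT cells, 11.6% longer with OHT in shCDK12 cells, 5.87% longer with silencing and 7.39% longer with silencing under OHT, against 7.60%, 7.96%, 5.48% and 5.84% in the rest. Among the 11 steps, 3, 4, 1 and 4 rose by 10 points or more in the 4 comparisons, against 8, 6, 8 and 9 of the 61 steps with a region before 71 Mb. Matched regions of the end, 14 to 19 per comparison, had a median log2 density change relative to the autosomes of 0.00 (interval -0.14 to 0.15), -0.14 (-0.28 to -0.04), 0.02 (-0.14 to 0.16) and -0.18 (-0.34 to 0.11).

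The places of 17q25 that were not common to all lists numbered 6, and shNT had a region in none of them. In the rest of the chromosome 48 of 53 such places also had no region of shNT. Over all autosomes, too, most such places lacked shNT, the shortest list with 3874 regions. Of the 4893 autosomal places, 456 were in shCDK12 + OHT alone and 386 in the 3 lists other than shNT. Of the 6 places of 17q25, 3 were in the 3 other lists. The place at chr17:72176001-72321200 had 3814 reads in shNT + OHT, 840 with CDK12 silenced and 3443 with both, the one at chr17:77349201-77494800 had 1257, 312 and 3474, and the one at chr17:80875201-80940000 had 944, 467 and 1824. The place at chr17:75894801-75958000 was in both shCDK12 lists, with 300 and 1349 reads, and 2 places (chr17:72326001-72443600 and chr17:75588801-75640000) were in shCDK12 + OHT alone, with 2625 and 1105 reads. A region that is not listed may still have had reads below the calling threshold of its list.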

How the data were processed

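EdU was linked to biotin by click chemistry, and the DNA pulled down was sequenced. The submitters' processing notes name BWA 0.6.2, SAMtools and SICER, a caller of broad regions, and the builds hg19 and mm10 without saying which served for what. The lists fit hg19, since the last window of chromosome 17 ended at 81195200. The authors deposited 1 list per condition from merged replicates, with a whole-number read count per region, not scaled to depth, and a score, used here only to rank regions and as a minimum in an alternative. Limits lie on 400 bp windows, and the smallest gap was 4400 bp. Positions are printed counted from 1. The genome and annotation at hand were of another build, so no sequence or gene position was used, and the RefSeq table (of GRCh38.p14) gave gene numbers per chromosome only.

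Regions overlapping by at least 1 bp were taken as shared. Reads of a region crossing a step border were divided by length. Steps changing by 10 points or more were counted, against all autosomal steps with a region. A list's share of a chromosome was taken over the span from its first to its last base called in any list. Medians have 95% binomial order-statistic intervals and shares Wilson intervals, for counting error only. Regions were named by a rule: the 3 widest and the 1 with the top score in each list and, per comparison, the widest absent from either list, the steps named are the 3 with the largest rise and fall, and other places were named after their values were seen. The chromosome, the limits and the rules were chosen with earlier results of these data known, and the blocks, the classes by density and the common places after seeing the data. The functions were tested on simulated lists, where 200 of 200 planted absent and 50 of 50 planted divided regions were recovered. Analyses ran in Python 3.11.15 with pandas 2.3.3, numpy 2.4.6, matplotlib 3.10.9 and scipy 1.17.1.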

Additional observations from a re-analysis of the deposited data

Results flagged for a closer look

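The number of regions on chromosome 17 moved in opposite directions with OHT in the 2 hairpin backgrounds, by 20 without silencing and by -25 with it. With silencing of CDK12 it moved by 43 without OHT and by -2 with OHT. These opposite directions were lost when the lists were restricted to the common minimum score, where OHT moved the number by 6 and 13 and silencing by 3 and 10, and when each list was restricted to its 3874 highest-scoring regions, where OHT moved it by -12 and -13 and silencing by 7 and 6. The -2 also became 5 after joining across 10 kb and 1 without regions up to 2 kb.

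The median width moved in opposite directions as well. OHT changed it by -21.4 kb without silencing and by 4.4 kb with it, and silencing changed it by -14 kb without OHT and by 11.8 kb with OHT. Under the common minimum score OHT changed it by -16 and -7.4 kb, in the same direction, and silencing by 0 and 8.6 kb. With the 3874 highest-scoring regions the changes were -3 and 2.8 kb with OHT and -1.2 and 4.6 kb with silencing. With 1 list per condition, these differences between the effects were not tested.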

How the results depend on the processing

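Of 256 values recomputed under 10 alternative settings, 218 stayed within their interval, or within 1.5 times for counts and length changes, and 38 moved. The sign changed in 1 value, the median log2 density ratio of matched regions for silencing under OHT, less that of all autosomes, from -0.010 to 0.0040 after joining across 10 kb, and the interval of the first included 0. Values under the removal of regions up to 2 kb, joining across 10 kb, a 17q25 end from 75 Mb, the median density and the 21 other autosomes as reference stayed within those limits. With a common minimum score of 146 in all lists, the median width of shCDK12 was 101.6 kb, 0.461% of shCDK12 was absent from shCDK12 + OHT and 16.5% the other way, 6.54% of shNT was absent from shCDK12 and 6.45% the other way, silencing without OHT lengthened coverage by 2.37%, and 5 steps rose and 2 fell. With the 3874 highest-scoring regions of each list, the median widths were 98.6 kb for shNT + OHT and 100.4 kb for shCDK12, 1.87% of shNT was absent from shNT + OHT and 7.43% the other way, 6.07% of shNT was absent from shCDK12 and 7.69% the other way, silencing without OHT lengthened coverage by 2.83% with 5 rising and 2 falling steps, and 1 step fell with OHT in shCDK12 cells. Under a reciprocal overlap of 50%, which is stricter by construction, the absent shares, first list then second, were 16.8% and 23.9% for OHT in shNT cells, 28.4% and 20.7% for OHT in shCDK12 cells, 14.0% and 28.4% for silencing, and 31.2% and 30.6% for silencing under OHT. The share of the second list absent from the first was below that of all autosomes in each of the 4 comparisons under both score settings. In 500 kb steps 22, 22, 24 and 26 steps rose, and 1, 3 and 4 fell in the last 3 comparisons. At 20 points 1, 3, 1 and 2 rose and 0 fell in the fourth. The cause of the moves under the score settings was not tested. No paired analysis was possible because the replicates were merged before deposit, and for the same reason no replicate could be left out.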

Other observations

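Among the places common to all 4 lists, a few narrow ones were very dense, and some of them hardly followed the reads of the chromosome from list to list. The place chr17:11010001-11018800, at the edge of the 4.12 Mb stretch without regions, held 5532 reads in shNT and 7434 with OHT added, and 6909 in shCDK12 and 6703 with OHT added, so that the highest was 1.34 times the lowest. The place chr17:22020001-22027600, near the centromere, held 1530, 2068, 1935 and 2078 reads, 1.36 times apart. Over all regions of chromosome 17 the highest list had 3.65 times the reads of the lowest. On chromosome M, the mitochondrial genome, the lists held 1587463, 1413690, 1576695 and 1698827 reads, 1.20 times apart. Another narrow place, chr17:31149201-31150000, held 580, 1457, 392 and 591 reads, 3.72 times apart, and so varied as the chromosome did. All 3 kept the same limits in the 4 lists. Whether these places reflect sequence with many copies in the genome was not tested.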
